A study of Bos taurus with 20 samples.

Results

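Fresh whole bovine embryos were compared with trophectoderm (TE) taken from fresh embryos, both recovered at day 14 of development by flushing the uterus. The labels put 6 samples in the whole embryo group and 5 in the TE group, which is 11 of the 20 samples of the series. Neither group had been vitrified, that is, cooled fast enough to turn to glass for storage, and no treatment, breed, genotype or sex is given for them. The other 9 samples, 2 whole embryos and 7 TE samples from vitrified embryos of the same day, were used to see whether a difference was also found there. They also entered the gene filter, the spread estimate of the fit and the rescaling of libraries. The labels call all samples embryonic cells. They do not say how TE was separated, which part of it was taken, whether tissue was pooled or which embryo gave which sample.

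The ruminant embryo at this stage is a lengthening sac. Its outer layer is the TE, a single epithelium that forms the fetal part of the placenta and secretes interferon tau, by which pregnancy is recognised. Inside lie the hypoblast, which lines the yolk sac and makes apolipoproteins, and the epiblast, a small disc that gives rise to the body and keeps pluripotency genes such as POU5F1 and NANOG active. A whole embryo holds all 3 layers, with TE by far the most of its cells.

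Expression is given in RPKM, reads per kilobase of the gene and per 1000000 (1 M) reads of the library, after removal of the constant 0.01 that every deposited value carries. The kilobases span introns as well, so levels of different genes cannot be compared. A sum over genes, and which gene makes up most of it, is for the same reason weighted towards genes of short span. Whole reads could be recovered from the values, and the fresh libraries held 6.01 to 14.53 M reads. Each ± below is an SE of the fit or an SD between samples, not a counting error. Of 15542 genes, 10599 had at least 10 reads in at least 2 libraries and were tested with limma on log2(RPKM + 1), a scale that understates the change of low genes. Differences are whole embryo minus TE on that scale, ± SE, with p adjusted by Benjamini-Hochberg over all 10599 genes. The p-values measure only the spread between these samples, which may be technical, and a batch that follows the groups cannot be told apart from them, since the labels name none.

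The fresh TE libraries differed from the fresh whole embryos in makeup as well. Listed genes took 59.5 ± 1.55% of reads in whole embryos (SD, n = 6) and 38.0 ± 2.83% in TE (n = 5). Mitochondrial messenger RNA made up 4.23 ± 0.676% and 1.23 ± 0.144% of listed-gene reads, mitochondrial ribosomal RNA 1.82 ± 0.696% and 4.28 ± 0.189%, and 79 small RNA genes gave 106 ± 22.8 and 688 ± 193 reads per M. In each measure the groups did not overlap, and p was 0.004329 by an exact two-sided permutation test, the smallest value that 6 against 5 samples allow, and no larger after adjustment over the 5 measures. The vitrified TE libraries had 57.7 to 59.7% of reads in listed genes and 6.29 to 9.87% mitochondrial messenger RNA, so they stood with the whole embryos in the first measure and beyond them in the second. Their mitochondrial ribosomal RNA, at 2.61 to 5.58%, went the other way, with 6 of 7 libraries above every fresh whole embryo and the range of fresh TE inside theirs. Fresh TE 1 and 2 were nearly the same library by their reads, with a chi-square of 1.88 for each degree of freedom. For fresh TE 3 and 4 it was 1.48, while other pairs of fresh TE samples had 11.9 to 22.6. They were kept as separate samples, so p-values may be too small, and averaging each pair left 5607 genes higher and 512 lower. With the pairs averaged, the exact permutation p was 0.0238 for each library measure.

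More genes were detected in whole embryos. At least 10 reads were found for 9022 ± 663 genes per whole embryo and 6901 ± 277 per TE sample, and still for 7227 ± 160 and 6513 ± 57.0 when each library was thinned to the listed-gene reads of the shallowest. As deposited, 6364 of 10599 tested genes (60.0%) were higher and 633 (5.97%) lower in whole embryos. Higher calls were 90.95% of the total, a split that followed the scaling. Counted per M listed-gene reads (listed-gene scaling) it was 4204 (39.7% of tested genes) and 1696 (16.0%), or 71.3% higher. When each library was instead set by the median ratio of its genes to their geometric mean (median-ratio scaling) it was 3182 (30.0%) and 2653 (25.0%), or 54.5% higher, and with quantile normalization 3267 (30.8%) and 2684 (25.3%), or 54.9%. The median difference of all genes moved with it from 0.14 to 0.06, 0.01 and 0.01 on the log2 scale, and the median ratio of group means from 2.18 to 1.39 and 1.10 under the first 3. Genes higher under the first 3 scalings numbered 3177 (30.0%), and all 633 lower genes were also lower under the first 3. Both rescalings shift genes towards lower in whole embryos, so keeping these 633 calls is no independent check. Values below are as deposited unless a scaling is named, and the call of each gene was kept with median-ratio scaling unless its loss is stated. The counts of a gene list have to be read against these shares.

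**Figure D1:**
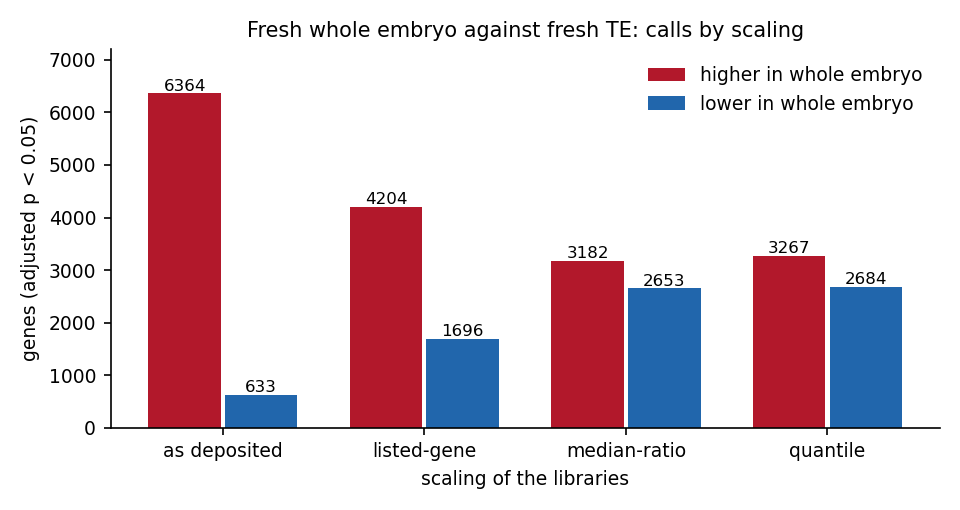
Genes past an adjusted p of 0.05 (vertical axis, number of genes) that were higher (red) or lower (blue) in fresh whole embryos than in fresh TE under 4 scalings of the libraries. Higher calls fall from 6364 as deposited to 3182 with median-ratio scaling, while lower calls go from 633 to 2653.

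Core pluripotency genes of the epiblast were near 0 in fresh TE and measurable in whole embryos. POU5F1, the core pluripotency factor (chromosome 23, 27769893 to 27774393, on the UMD3.1 assembly used by the table and for all positions here), stood at 1.05 to 6.01 RPKM (median 1.70) in whole embryos. The TE samples held 0, 0.0370, 0.113, 0.0916 and 0.0664 RPKM. Every whole embryo was above every TE sample, and the difference was 1.49 ± 0.46 (adjusted p = 0.0076; 1.33 ± 0.41 with median-ratio scaling), or 37.4-fold between the means. NANOG, its partner factor (chromosome 5, 101871073 to 101876227), ranged over 0.381 to 2.53 RPKM (median 0.561) in whole embryos, against 0, 0, 0.0741, 0 and 0.0290 RPKM in TE. These groups did not overlap either, with a difference of 0.84 ± 0.29 (adjusted p = 0.015; 0.74 ± 0.24 with median-ratio scaling), though the call was lost when the near-identical TE libraries were averaged (adjusted p = 0.053). Both calls were lost with a pseudocount of 5 (0.093 for POU5F1 and 0.067 for NANOG). None of the TE samples reached 10 reads in either gene, so levels this low are set by a handful of reads.

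ZFP42 (REX1), a marker of the pluripotent state (chromosome 27, 16630109 to 16630997), gave the largest rise of the epiblast list. It stood at 4.07 to 54.9 RPKM (median 17.9) in whole embryos. TE samples stood at 0, 0.188, 0.287, 0.155 and 0.168 RPKM. The means differed 154-fold as deposited and 76.1-fold with median-ratio scaling, and the fitted difference was 4.09 ± 0.46 (adjusted p = 3.9e-07). DPPA2, a chromatin factor of early embryos, went with it at 0.293 to 2.05 RPKM (median 0.743) against 0.0239, 0.0174, 0, 0.0143 and 0 RPKM, without overlap (0.90 ± 0.22, adjusted p = 0.0017).

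SOX2, the third core factor, was found in 5 of 6 whole embryos at up to 0.588 RPKM and in fresh TE 2 alone at 0.114 RPKM. Whole embryo 6 had no read, so the groups overlapped at 0, and the difference of 0.34 ± 0.21 did not pass (adjusted p = 0.15). It passed with only the fresh groups in the fit (0.011), with a pseudocount of 0.1 (0.021) and in a fit with the replicate number as a block (0.0032). OTX2, a homeobox factor of the anterior epiblast and endoderm, stood at 0.155 to 0.551 RPKM in whole embryos and 0 to 0.0679 RPKM in TE. Its call (0.40 ± 0.16, adjusted p = 0.031) was lost without any of fresh whole embryos 1, 3 and 4 or fresh TE 1, 2 and 5, with adjusted p up to 0.064, and with the TE pairs averaged (0.085).

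Of 22 tested epiblast genes 12 were higher in whole embryos and none lower as deposited (54.5% and 0%, against 60.0% and 5.97% of all genes). With median-ratio scaling 8 were higher and none lower (36.4% and 0%, against 30.0% and 25.0%). Their median difference was 0.30 against 0.14 for all genes, and 0.04 against 0.01 with median-ratio scaling. The share of higher calls was thus near that of all genes under both scalings, and what stood out were a few large differences. KLF4, a factor also active in epithelia, rose by 2.17 ± 0.24, from 0.780 to 1.77 RPKM in TE to 6.24 to 13.4 RPKM in whole embryos, and the mucin-like membrane protein PDPN by 3.95 ± 0.12, from 0.588 to 1.01 RPKM to 20.9 to 30.5 RPKM. PIM2, a survival kinase, was higher by 0.42 ± 0.10 as deposited and level with median-ratio scaling (0.03 ± 0.10, adjusted p = 0.81).

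Whole embryos differed in their levels of epiblast transcripts, though not in the same order for each gene. Whole embryo 3 had the highest POU5F1 (6.01 RPKM), NANOG (2.53), SOX2 (0.588), OTX2 (0.551) and ZFP42 (54.9) of the 6. Whole embryo 5 held 1.05 RPKM of POU5F1 and 0.381 of NANOG, the lowest of both. KLF4 and PDPN were ordered otherwise, with 6.85 RPKM of KLF4 and 22.4 of PDPN in whole embryo 3 against 13.0 and 30.5 in whole embryo 4. In bulk samples such a spread can mean more cells of a type or more RNA per cell, which cannot be told apart. The 2 vitrified whole embryos were far apart, at 0.316 and 20.6 RPKM of POU5F1 and 0 and 4.22 of NANOG.

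Of the 22 genes 6 were higher and none lower in vitrified whole embryos than in vitrified TE, where 15.3% and 3.59% of all genes were. The named genes did not behave alike in that TE. NANOG stayed near 0 in vitrified TE (0 to 0.174 RPKM), below every fresh whole embryo. POU5F1 was found there at 0.302 to 1.25 RPKM (median 0.856), which overlapped the fresh whole embryos. ZFP42 stood at 11.5 to 41.3 RPKM (median 23.7), within the range of fresh whole embryos, and PDPN at 15.2 to 21.1 RPKM (median 17.8), below most of them and far above fresh TE. The whole embryo minus TE difference was larger in fresh than in vitrified samples by 2.38 for ZFP42 (adjusted p = 0.024) and 4.16 for PDPN (8e-11), a test that 32.3% of all genes passed. Genes named for a large or clear fresh difference are likelier to pass it, since the test uses the same fresh values. For POU5F1 it differed by -0.07 (0.96) and for NANOG by -0.30 (0.66), which did not pass.

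**Figure D2:**
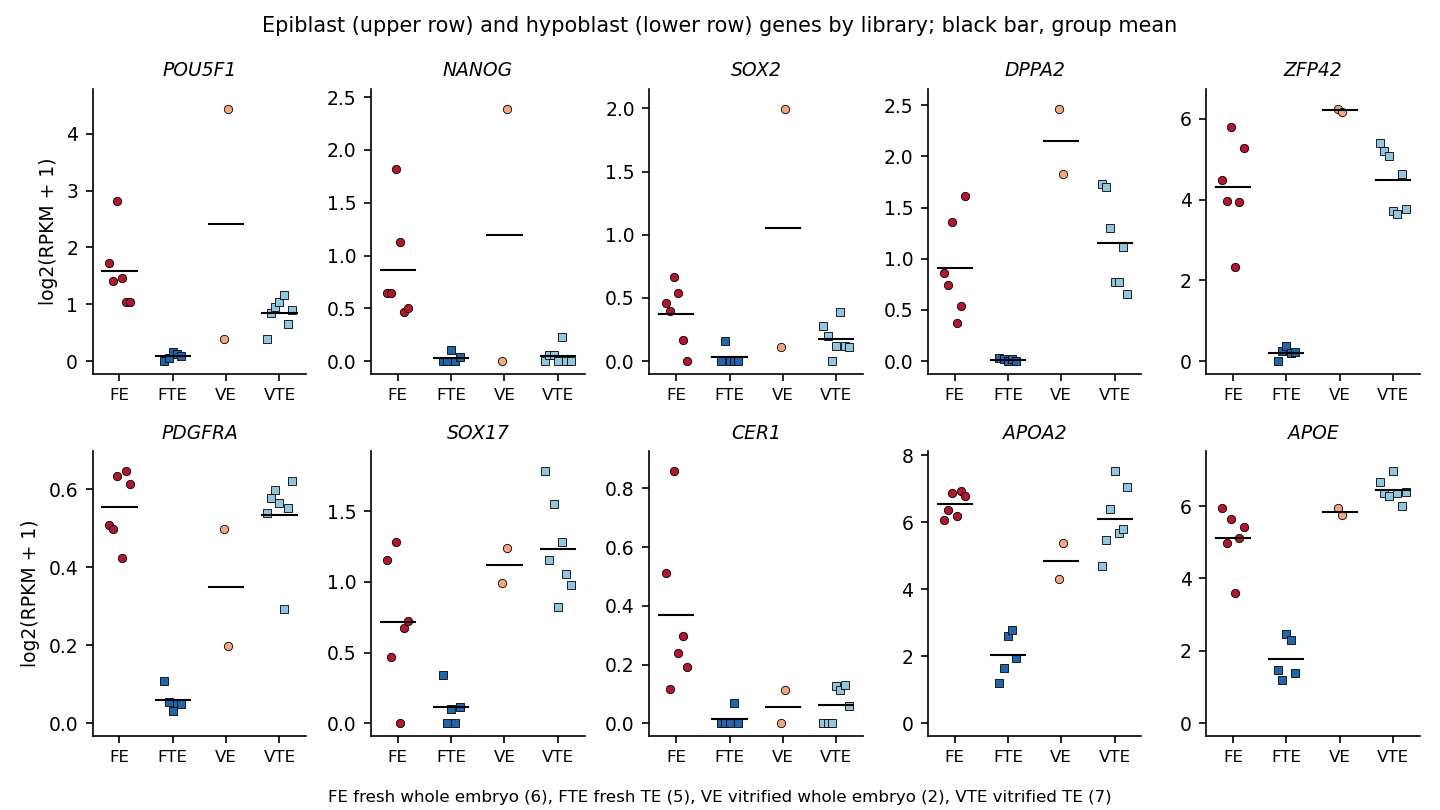
Levels of 5 epiblast genes (upper row) and 5 hypoblast genes (lower row) on the log2(RPKM + 1) scale in each library, as deposited, in fresh whole embryos, fresh TE, vitrified whole embryos and vitrified TE, with the group mean as a black bar. POU5F1 and NANOG are near 0 in the 5 fresh TE libraries and above them in the 6 fresh whole embryos, while ZFP42, APOA2 and APOE in vitrified TE reach or pass the levels of fresh whole embryos.

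Genes listed for hypoblast and yolk sac were the other inner group examined, though some were high in vitrified TE as well. APOA2, an apolipoprotein of lipid-carrying particles (chromosome 3, 8301476 to 8302730), stood at 66.3 to 119.7 RPKM (median 95.2) in whole embryos. It was at 1.29, 2.12, 5.08, 5.81 and 2.86 RPKM in the TE samples. The ranges lay far apart, with means that differed 27.4-fold as deposited and 14.0-fold with median-ratio scaling (4.50 ± 0.41, adjusted p = 3.4e-08). APOE, another lipid carrier (chromosome 18, 53040105 to 53042793), stood at 11.1 to 60.9 RPKM (median 37.8) against 1.75, 1.30, 4.55, 3.94 and 1.61 RPKM, a difference of 3.35 ± 0.33 (adjusted p = 6.7e-08), with whole embryo 4 the lowest of its group. In vitrified TE APOA2 was at 24.6 to 182 RPKM, and APOE at 63.0 to 124 RPKM, above every fresh whole embryo.

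PDGFRA, the receptor that marks primitive endoderm, was at 0.341 to 0.565 RPKM (median 0.476) in whole embryos and 0.0780, 0.0383, 0.0213, 0.0374 and 0.0344 RPKM in TE, without overlap (0.49 ± 0.06, adjusted p = 8.4e-07; 0.40 ± 0.05 with median-ratio scaling). SOX17, an endoderm transcription factor, ranged over 0 to 1.43 RPKM (median 0.624) against 0.270, 0, 0.0707, 0 and 0.0830 RPKM. Whole embryo 4 had no SOX17 read and so fell among the TE samples, yet the difference passed (0.61 ± 0.19, adjusted p = 0.0099). GATA6, an early endoderm factor, was close to 0 in both groups, at most 0.0262 RPKM in whole embryos and 0.0130 in TE, and no difference was detectable at this depth (0.01 ± 0.02, adjusted p = 0.60). GATA4, its relative, stood at 0.0238 to 0.122 RPKM and 0 to 0.00852 RPKM (0.09 ± 0.03, adjusted p = 0.011). The calls of SOX17 and GATA4 were lost when median-ratio scaling was joined with averaged TE pairs (0.080 and 0.063).

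CER1, an inhibitor of Nodal and BMP signals secreted by anterior endoderm, was found in every whole embryo at 0.0843 to 0.813 RPKM (median 0.204), and in fresh TE 4 alone at 0.0501 RPKM (0.36 ± 0.09, adjusted p = 0.0019). LEFTY2, a Nodal inhibitor, had too few reads to be tested, at 0.0406 to 0.387 RPKM in whole embryos and listed at 0 in all 5 TE samples. RBP4, the retinol carrier, rose by 1.98 ± 0.28, and APOA1, the main protein of high-density lipoprotein, by 1.71 ± 0.29, from 149 to 322 RPKM to 560.4 to 985 RPKM, a call lost with median-ratio scaling and averaged TE pairs (0.10). BMP2, a ligand that endoderm and trophoblast can make, was the member that went the other way, at 0.261 to 0.584 RPKM (median 0.313) in whole embryos and 2.14, 1.73, 1.18, 1.22 and 2.15 RPKM in TE (-0.95 ± 0.12, adjusted p = 1.1e-06).

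Of 23 tested hypoblast genes 18 were higher and 1 lower (78.3% and 4.35%, against 60.0% and 5.97% of all genes). With median-ratio scaling 13 were higher and 2 lower (56.5% and 8.70%, against 30.0% and 25.0%), and the median difference was 0.28 against 0.01 for all genes (0.35 against 0.14 as deposited). The summed level of the 33 genes found, 667 to 1191 RPKM in fresh whole embryos, 163 to 342 in fresh TE and 744 to 1596 in vitrified TE, was mostly that of APOA1, which alone stood at 585 to 1244 RPKM in vitrified TE. In vitrified samples 1 of the 23 was higher in whole embryos and 1 lower, where 15.3% and 3.59% of all genes were. For 14 of 23 the contrast differed between fresh and vitrified samples, APOA2 by 5.75 (adjusted p = 9.1e-06) and PDGFRA by 0.68 (6.1e-05). Of all genes 32.3% passed this test.

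Lists for other cell types were small. Of 5 tested germ cell genes 3 were higher under both scalings (60.0%, against 60.0% of all genes as deposited and 30.0% with median-ratio scaling). They were SYCP3 of the meiotic chromosome axis (1.56 ± 0.20, 6.91-fold between the means), PRDM1, a repressor of germ cell founders (0.17 ± 0.04, 7.89-fold), and the receptor KIT (0.11 ± 0.01, 9.25-fold). Of 7 tested primitive streak and mesoderm genes 2 were higher and none lower, and 2 higher and 2 lower with median-ratio scaling. These were BMP4, a ligand also made by trophoblast (0.83 ± 0.20), and VIM, a filament of mesenchymal cells, at 0.104 to 0.314 RPKM and 0 to 0.0693 RPKM (0.21 ± 0.08, adjusted p = 0.027). The VIM call was lost without fresh TE 1 or 3 or fresh whole embryo 3 or 4 (adjusted p up to 0.065), which left 1 gene of this list. It was also lost when the near-identical TE libraries were averaged (adjusted p = 0.074). EOMES, a streak factor, was found in whole embryo 3 alone, at 0.0512 RPKM, and at up to 0.127 in TE. KDR, a receptor of mesodermal and vessel cells, was at 0 in 5 of 6 whole embryos and 4 of 5 TE samples. Of 3 neural and amnion genes none passed as deposited (1 was higher without fresh TE 4, fresh whole embryo 2 or fresh whole embryo 3), and HESX1, of the anterior neural plate, was at 0.562 to 5.29 RPKM and 1.19 to 3.11 RPKM (-0.24 ± 0.34, adjusted p = 0.54; -0.94 ± 0.33 with median-ratio scaling, 0.02).

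Blood, vessel and immune markers summed to 5.28 to 8.12 RPKM in whole embryos and to 11.5 to 17.8 in TE. Of 8 tested 3 were higher and 3 lower, and 1 higher and 4 lower with median-ratio scaling. The sum in TE was mostly AIF1, a macrophage marker, at 0.514 to 1.85 RPKM (median 1.29) in whole embryos and 8.83, 9.81, 10.9, 12.0 and 15.3 RPKM in TE (-2.52 ± 0.17, adjusted p = 1.1e-09). The leukocyte integrin ITGB2 was also lower in whole embryos, but at 0.0962 to 0.185 RPKM in TE, and the endothelial adhesion protein PECAM1 was at 0.0186 to 0.0311 RPKM. The macrophage marker CD68 went the other way (0.70 ± 0.18, adjusted p = 0.0019), a call lost with median-ratio scaling (0.12). HBA, an alpha globin with near-identical copies, stood at 0.829 to 2.29 RPKM and 0 to 0.217 RPKM.

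Markers of the maternal uterus were followed because the embryos were flushed from it. The 11 genes found summed to 2.25 to 5.86 RPKM in whole embryos and 1.32 to 3.12 in TE. MUC1, a surface mucin of endometrium and also of embryonic epithelia, accounted for most of that, at 1.73 to 4.99 RPKM and 1.06 to 2.97 RPKM in overlapping groups. Its difference of 0.62 ± 0.25 (adjusted p = 0.037) turned to -0.02 with median-ratio scaling (adjusted p = 0.96). Of 3 tested genes 2 were higher as deposited, none with median-ratio scaling and 0 or 1 without any one sample other than fresh whole embryos 2 and 3. The MUC1 call was lost without any of fresh whole embryos 1, 4 and 5 or fresh TE 1, 2, 3 and 4 (up to 0.089). With the near-identical TE libraries averaged it was lost as well (adjusted p = 0.16). LTF, an iron-binding protein of uterine fluid, was at 0.808 RPKM in whole embryo 4, 0.336 in whole embryo 6 and 0.129 in whole embryo 2, at 0.0101 or less in the other 3, and at 0 in 4 of 5 TE samples. Its call (adjusted p = 0.045) was lost without any 1 of the 5 fresh TE samples or without whole embryo 6, with adjusted p up to 0.095, and with median-ratio scaling (0.055). Averaging the TE pairs lost the LTF call too (0.11), so that no gene of this list was then called higher.

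ISG15 and IFI6 of the interferon response were highest in the same 3 embryos. ISG15, a ubiquitin-like protein induced by interferon, stood at 5.54 RPKM in whole embryo 4, 1.60 in whole embryo 6 and 1.45 in whole embryo 2, and at 0.0662 or less in the other 3. IFI6, another such gene, followed at 1.04, 0.325 and 0.671 RPKM, against 0.0948 or less. In TE both were near 0, with ISG15 at 0 to 0.245 RPKM and IFI6 at 0 to 0.0460 RPKM. The ISG15 call (0.85 ± 0.34, adjusted p = 0.035) was lost without any of fresh whole embryos 2, 4 and 6 or fresh TE 1, 2, 4 and 5 (up to 0.073), and with median-ratio scaling (0.056). LTF and ISG15 being high in the same 3 embryos is given as measured, and the part of uterine material in these values was not tested.

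The interferon list as a whole had 14 tested members, of which 8 were higher (57.1%, against 60.0% of all genes) and none lower. With median-ratio scaling 6 were higher and 1 lower (42.9% and 7.14%, against 30.0% and 25.0%). IFITM3, a membrane protein that blocks virus entry, gave the largest difference, with 86.2 to 307 RPKM (median 219) in whole embryos and 3.37, 4.73, 15.0, 11.4 and 10.1 RPKM in TE (4.51 ± 0.33, adjusted p = 2.1e-09). It was lowest, not highest, in whole embryo 4, IFITM2 was highest in whole embryo 3 (6.66 RPKM) and IRF7 in whole embryo 1 (10.8 RPKM), so the list had no common order over the embryos. PLAC8, named for placenta, rose by 2.15 ± 0.16 and the transcription factor IRF7 by 1.35 ± 0.20. IFITM3 and IFITM2 have near-identical relatives, so which copy gave the reads is uncertain.

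The Y-linked helicase DDX3Y, which the table places on chromosome X, had at least 10 reads in 5 of 6 whole embryos and in no TE sample. Whole embryo 4 had none, and fresh TE 2 stood at 0.0154 RPKM. The difference was 1.24 ± 0.30 (adjusted p = 0.0014). DDX3Y has a similar copy on chromosome X, so some reads may be misplaced, and the part of embryo sex in the other results was not tested.

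TE genes went both ways. Both groups held keratins of simple epithelium at high levels, as the TE label implies, and none of the 30 TE identity genes found lacked reads in fresh TE. KRT18 stood at 943 to 1677 RPKM (median 1072) in whole embryos and 2006, 1925, 2386, 2479 and 1971 RPKM in TE, lower in whole embryos (-0.90 ± 0.16, adjusted p = 7e-05). Its partner KRT8 was at 335 to 514 RPKM (median 422) against 151, 141, 173, 183 and 165 RPKM, higher in whole embryos (1.37 ± 0.13, adjusted p = 6.8e-08; 0.40 ± 0.12 with median-ratio scaling). The 2 keratins form one filament, and in these libraries they went opposite ways without overlap of the groups.

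Transcription factors of the TE that were lower in whole embryos included 6 of the homeobox, AP-2 and GATA families. DLX5, a homeobox factor (chromosome 4, 14291967 to 14296238), was at 0.0628 to 0.367 RPKM (median 0.193) against 3.60, 2.73, 1.73, 1.67 and 1.54 RPKM in TE. That is a 10.6-fold lower mean as deposited and 20.7-fold with median-ratio scaling, without overlap (-1.39 ± 0.18, adjusted p = 2.5e-06). TFAP2A, an AP-2 factor (chromosome 23, 45480546 to 45499035), stood at 0.164 to 0.476 RPKM (median 0.248) against 1.87, 1.80, 1.27, 1.09 and 1.13 RPKM (-0.91 ± 0.09, adjusted p = 5.3e-08). GATA3, a regulator of trophoblast fate, was at 0.416 to 1.02 RPKM (median 0.463) in whole embryos and at 1.62, 1.30, 1.01, 1.28 and 1.53 RPKM in TE (-0.61 ± 0.10, adjusted p = 2.4e-05). The highest whole embryo of GATA3, at 1.02 RPKM, reached the lowest TE sample, at 1.01. GATA2 (-0.64 ± 0.18), TFAP2C (-0.67 ± 0.17) and DLX3 (-0.91 ± 0.17) were lower as well, each with overlapping groups.

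Other TE factors were higher in whole embryos. ELF3, an epithelial ETS factor, was at 9.76 to 17.9 RPKM against 1.71, 1.06, 1.97, 2.26 and 1.54 RPKM (2.25 ± 0.25, adjusted p = 3.3e-07; 1.55 ± 0.25 with median-ratio scaling). SOX15, expressed in trophoblast, stood at 2.27 to 17.2 RPKM (median 8.12) against 0.358, 0.368, 0.493, 0.456 and 0.0827 RPKM, a 25.2-fold higher mean (2.64 ± 0.33, adjusted p = 1.2e-06). VGLL1, a TEAD partner, rose by 1.33 ± 0.21, KLF5 by 1.59 ± 0.13, ETS2, an activator of the interferon tau gene, by 0.71 ± 0.14, and ID2, an inhibitor of helix-loop-helix factors, by 3.34 ± 0.24. Groups did not overlap in any of these 6 genes, as held for 48.4% of all tested genes in this direction.

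Of 30 tested TE identity genes 14 were higher and 10 lower as deposited (46.7% and 33.3%, against 60.0% and 5.97% of all genes). The balance turned with median-ratio scaling, to 8 higher and 11 lower (26.7% and 36.7%, against 30.0% and 25.0%). In vitrified samples 1 was higher in whole embryos and 2 lower, GATA2 (-1.19, adjusted p = 0.0043) and GATA3 (-0.40, adjusted p = 0.038). Of all genes 15.3% were higher and 3.59% lower there. In 12 of 30 the contrast differed between fresh and vitrified samples, as it did in 32.3% of all genes. SOX15 stood at 13.7 to 21.2 RPKM (median 15.6) in vitrified TE and ELF3 at 15.5 to 48.4 RPKM (median 30.3), over or beyond the upper range of fresh whole embryos. DLX5, at 1.97 to 3.19 RPKM (median 2.28) there, overlapped fresh TE.

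Secreted trophoblast products gave 3 of the 8 genes named for the largest excess in fresh TE, PAG2 the first of them. IFNT, interferon tau (chromosome 8, 22607643 to 22634002), stood at 6.35 to 21.3 RPKM (median 12.2) in whole embryos. TE samples held 128, 118, 99.9, 102 and 148 RPKM. The ranges were far apart, with a 9.26-fold higher mean in TE as deposited and 18.2-fold with median-ratio scaling (-3.19 ± 0.22, adjusted p = 1e-09). PAG2, a pregnancy-associated glycoprotein (chromosome 29, 38155711 to 38165209), was at 0.346 to 1.27 RPKM (median 1.02) against 47.2, 39.6, 78.6, 79.6 and 62.7 RPKM, a 69.6-fold difference of means (-5.03 ± 0.25, adjusted p = 3.4e-11). PAG11, of the same family, was at 4.25 to 13.9 RPKM (median 9.64) against 90.8, 83.3, 112, 119.9 and 131 RPKM (-3.39 ± 0.32, adjusted p = 3.9e-08). Interferon tau and PAG genes come in many near-identical copies, and which of them these reads came from is uncertain.

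PAG12 had 0.474 to 1.69 RPKM in TE and was at 0 in 5 of 6 whole embryos (-0.84 ± 0.10). Among 4 tested genes of this family 3 were lower and none higher, and all 4 were lower with median-ratio scaling. Of 8 tested early secretions 3 were lower, IFNT, SSLP1 (-1.30 ± 0.19) and the trophoblast Kunitz protein TKDP4 (-0.66 ± 0.17), while the protease inhibitors TIMP1 (1.92 ± 0.23) and SPINT1 (1.13 ± 0.11) were higher. Whole embryo 4, the shallowest of its group, had the highest IFNT (21.3 RPKM), and whole embryo 2 the lowest (6.35).

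Beyond these families, 5 more genes stood among those 8, which had to reach 5 RPKM. PINLYP, which by its name encodes a phospholipase inhibitor (chromosome 18, 52120387 to 52124419), was at 18.1 to 74.7 RPKM (median 39.3) in whole embryos and 418, 394, 465, 481 and 795 RPKM in TE (-3.68 ± 0.29, adjusted p = 4.1e-09). PRXL2A, a redox protein (chromosome 28, 36008547 to 36026992), was at 2.60 to 4.10 RPKM (median 3.18) against 79.2, 61.9, 44.8, 44.0 and 40.0 RPKM. The cell cycle inhibitor CDKN1C, imprinted and a brake on placental growth, was at 0.926 to 4.98 RPKM (median 2.69) against 21.0, 18.6, 38.9, 41.7 and 35.1 RPKM (-3.09 ± 0.30). ANKRD1, a target of the YAP pathway, differed by -2.71 ± 0.15 and the defensin DEFB by -2.68 ± 0.13. The rule that names these genes by size asks for groups that do not overlap, which 2.94% of tested genes showed in this direction.

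The excess of these products was found in fresh TE and not in vitrified TE. Vitrified TE held 2.99 to 5.74 RPKM of IFNT and 0.833 to 3.35 RPKM of PAG2, which for IFNT is below every fresh whole embryo. The whole embryo minus TE difference was -3.19 for IFNT in fresh and -0.15 in vitrified samples, and the difference between these, -3.04, passed (adjusted p = 8.7e-06). For PAG2 it was -5.91 (2.2e-08). These genes were named for the size of their fresh difference, so the test is not independent of that choice.

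**Figure D3:**
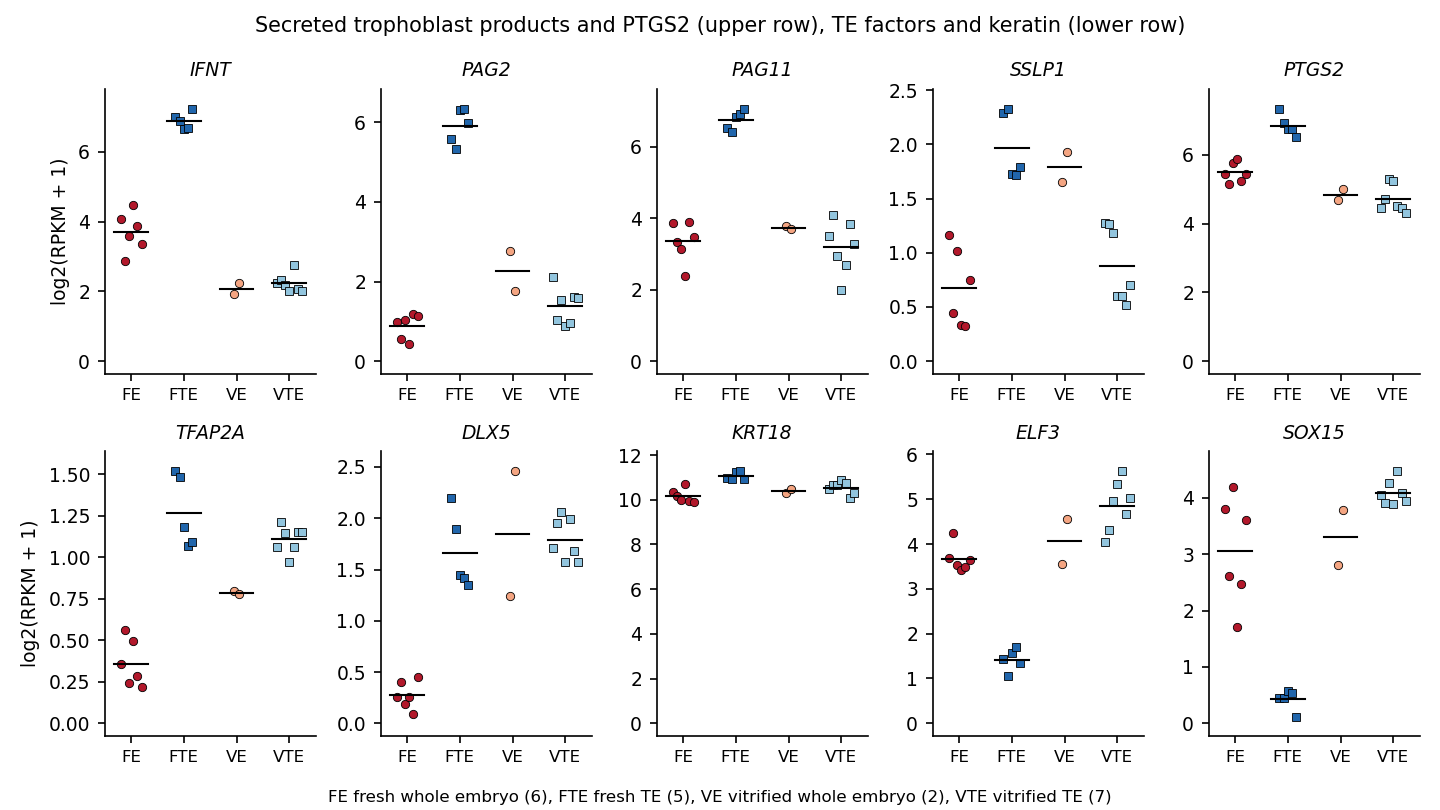
Levels of 3 trophoblast products, SSLP1 and the prostaglandin synthase PTGS2 (upper row) and of TE factors and a keratin (lower row) on the log2(RPKM + 1) scale in each library, as deposited, with group means as black bars. IFNT, PAG2 and PAG11 are high in the 5 fresh TE libraries and low in the other 3 groups, while ELF3 and SOX15 are low in fresh TE alone.

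Several genes with the largest excess in whole embryos were in neither the epiblast nor the hypoblast list. CCL27, a chemokine (chromosome 8, 77368244 to 77368956), stood at 37.5 to 185 RPKM (median 156) in whole embryos. In TE it was at 0.455, 1.17, 4.65, 3.28 and 3.36 RPKM, a 51.0-fold lower mean as deposited and 26.1-fold with median-ratio scaling (5.19 ± 0.60, adjusted p = 5.2e-07). It was low in the vitrified samples of both kinds, at 1.83 and 3.76 RPKM in whole embryos and 0.309 to 17.6 RPKM in TE. PLAU, the urokinase-type plasminogen activator that starts matrix breakdown, had a like pattern, at 47.1 RPKM or more in fresh whole embryos (median 66.2), 6.72, 5.87, 2.93, 2.55 and 9.29 RPKM in fresh TE and 3.75 to 13.5 RPKM in vitrified TE (3.49 ± 0.36, adjusted p = 1.2e-07).

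MIF, a cytokine that holds macrophages in place, was at 0.622 to 77.6 RPKM (median 25.3) in whole embryos and 0 to 0.347 RPKM in TE (4.18 ± 0.69, adjusted p = 3.3e-05). GUCA2A, the gut hormone guanylin, was at 8.23 to 27.0 RPKM (median 14.6) against 0, 0.0834, 0.447, 0.138 and 0.0749 RPKM (3.71 ± 0.31), and the tight junction gene CLDN6 at 4.17 to 51.2 RPKM (median 24.0) against 0.171, 0.0586, 0.762, 0.339 and 0.632 RPKM (3.91 ± 0.48). In vitrified TE these 3 stood at 5.94 to 33.8 RPKM, 3.77 to 16.8 RPKM and 20.2 to 78.5 RPKM. MIF there lay within the range of fresh whole embryos. GUCA2A (median 7.18 RPKM) lay mostly below that range, though above every fresh TE sample, and CLDN6 reached beyond its upper end. The whole embryo minus TE difference was -0.72 for CCL27 and -1.53 for MIF in vitrified samples, given as a description since both were named for the size of the fresh one.

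Vitrified TE values do not enter the fresh difference of a gene as deposited. Its libraries did share the gene filter, the spread estimate and the median-ratio scaling that decided the calls. With only the fresh groups in the fit, 6863 genes were higher and 636 lower. Levels in vitrified TE are given as a description. Of the 3177 genes higher under 3 scalings, 1549 had a mean of at least 1 RPKM in fresh whole embryos, the group where they are high. Of these, 1379 (89.0%) were in vitrified TE at 50% or more of the fresh whole embryo level, with a median of 89.8%. Fresh TE stood at a median of 22.0% of that level, which the choice of these genes by their fresh difference sets low. The 22.0% and 89.8% therefore cannot be set against each other. Of the 633 lower genes, 331 had at least 1 RPKM in fresh TE, the group where they are high, and 178 of them (53.8%) were in vitrified TE at 50% or more of the fresh TE level, with a median of 55.2%. Fresh whole embryos themselves stood at a median of 53.3% of that level, likewise set low by the choice of genes. The 50% mark thus hardly sets the fresh groups apart for these genes. The 89.0% and 53.8% therefore cannot be compared, and no share over all tested genes is given. These are deposited values, and the part of the lower share of listed-gene reads in fresh TE was not tested.

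The vitrified groups share no sample with the fresh ones. There, 1617 genes (15.3%) were higher and 381 (3.59%) lower in whole embryos than in TE, with 2 whole embryos only. Of the 3177 genes, 798 were called higher and 70 lower there, and 79.2% had a positive difference, against 64.4% of all tested genes. Of the 633 lower genes, 34 were called lower and 14 higher, and 64.3% had a negative difference, against 35.6% of all. The contrast itself differed between fresh and vitrified samples for 3427 genes (32.3%), and for 2876 (27.1%) with median-ratio scaling. In 454 genes (4.28%) every fresh whole embryo was above all 12 TE libraries, fresh and vitrified, and in 36 (0.340%) below them. All 8 whole embryos were above all 12 for 237 genes (2.24%) and below for 8 (0.0755%).

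**Figure D4:**
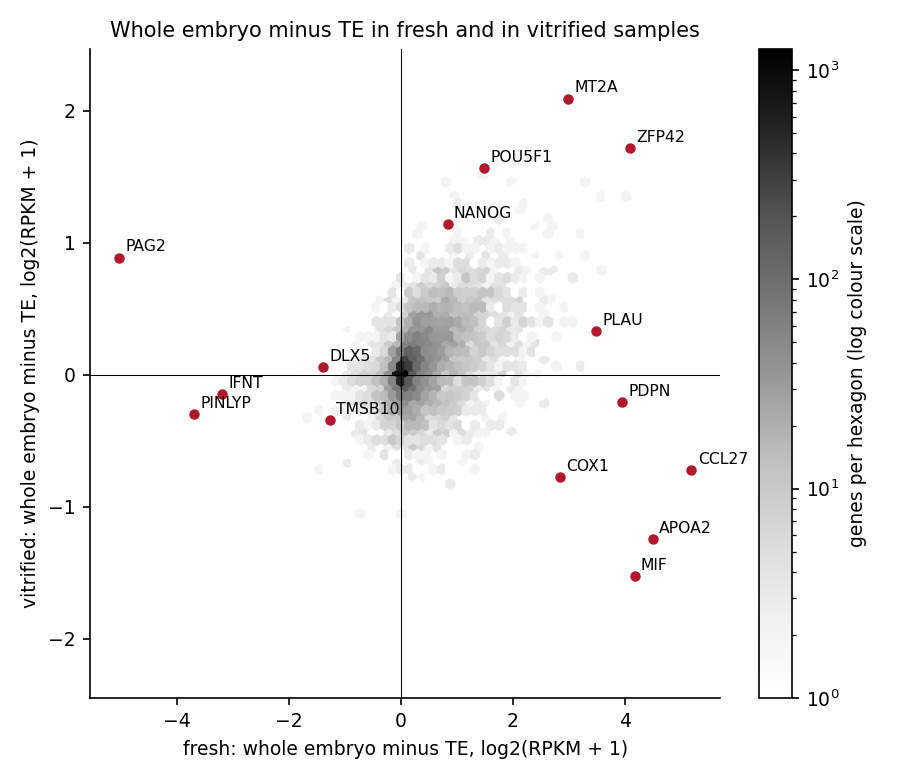
Whole embryo minus TE on the log2(RPKM + 1) scale in fresh samples (horizontal axis) and in vitrified samples (vertical axis) for the 10599 tested genes, as hexagons shaded by gene number on a log scale, with 15 named genes in red. POU5F1, NANOG, ZFP42 and MT2A are positive on both axes, while PAG2 and IFNT are far below 0 on the fresh axis alone and CCL27, APOA2 and MIF are positive on the fresh axis and negative on the vitrified axis.

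Mitochondrial messengers were higher in whole embryos, while mitochondrial ribosomal RNA, as given above, took a smaller share there. COX1, a subunit of cytochrome oxidase, was at 3847 to 5906 RPKM (median 4983) against 699, 594, 605, 630.4 and 869 RPKM in TE, without overlap (2.85 ± 0.14, adjusted p = 4.9e-11; 1.88 ± 0.16 with median-ratio scaling). All 13 mitochondrially encoded messengers were higher as deposited and 11 with median-ratio scaling, with medians of 2.55 and 1.61. Of all genes 60.0% and 30.0% were higher under these scalings. MT-CYB rose by 3.22 ± 0.19 and MT-ND6, on the other strand, by 3.26 ± 0.19. Some neighbours on this genome overlap, which makes the split of reads between them uncertain. In vitrified samples 12 of the 13 were lower in whole embryos than in TE, and all 13 differed between fresh and vitrified samples. Of all genes 3.59% and 32.3% did so.

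Nuclear genes for the same chain were 39 higher and 4 lower of 50 as deposited (7 lower without fresh whole embryo 4), 23 and 12 with listed-gene scaling, 18 and 13 with median-ratio scaling and 16 and 15 with quantile normalization. The lead of higher over lower members shrank over the scalings without turning, and the median difference went from 0.95 to 0.38, 0.06 and 0.07. NDUFS8, a core subunit of complex I, was higher under each (3.34 ± 0.25 as deposited). The small subunits ATP5ME of ATP synthase (-1.20 ± 0.13), NDUFA1 of complex I (-1.40 ± 0.23) and COX8B of cytochrome oxidase (-1.28 ± 0.15) were lower, with 213 to 402 RPKM of ATP5ME in whole embryos and 635 to 770.4 RPKM in TE. Of 76 cytosolic ribosomal protein genes 31 were higher and 17 lower as deposited (40.8% and 22.4%), which turned to 9 and 54 with median-ratio scaling (11.8% and 71.1%). RPL28 rose from 43.2 to 64.8 RPKM to 165 to 369 RPKM (2.39 ± 0.18), while RPS12 (-1.14 ± 0.18) and RPS4X (-1.02 ± 0.21) fell, and both directions held with median-ratio scaling.

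Lipid synthesis went against the trend of all genes. Of 29 tested genes for fatty acid and cholesterol synthesis 3 were higher and 16 lower in whole embryos as deposited (10.3% and 55.2%, against 60.0% and 5.97% of all genes). With median-ratio scaling 2 were higher and 22 lower (6.90% and 75.9%, against 30.0% and 25.0%). FADS2, which puts double bonds into polyunsaturated fatty acids, was at 0.144 to 0.290 RPKM (median 0.181) in whole embryos and 3.89, 3.45, 4.98, 4.81 and 3.96 RPKM in TE, a 21.4-fold difference of means (-2.12 ± 0.10, adjusted p = 3.4e-11). SCD, the desaturase of saturated chains, was at 0.956 to 1.36 RPKM (median 1.28) against 2.59 to 4.24 RPKM (-0.93 ± 0.12). Along the mevalonate and sterol path HMGCS1 (-0.73 ± 0.11), MVD (-1.12 ± 0.15), FDFT1 (-0.42 ± 0.07) and LSS (-0.33 ± 0.05) were lower, as was INSIG1 (-0.68 ± 0.13), which holds back that path. The elongase ELOVL1 was the largest exception (2.12 ± 0.13), while its relative ELOVL5 was lower (-0.68 ± 0.08).

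Lipid uptake genes were 11 higher and 8 lower of 27 (40.7% and 29.6%, against 60.0% and 5.97% of all genes). This turned to 5 and 14 with median-ratio scaling (18.5% and 51.9%, against 30.0% and 25.0%). The lower ones included SLC27A6, a fatty acid carrier, at 0.00179 to 0.0214 RPKM in whole embryos and 0.382 to 0.636 RPKM in TE, and MOGAT1 (-1.23 ± 0.08) and GPAM (-0.63 ± 0.04) of glyceride synthesis. PPARG, the lipid-sensing receptor that trophoblast uses, was at 0.00134 to 0.00729 RPKM against 0.0437 to 0.0841 RPKM (-0.09 ± 0.01). Prostaglandin and steroid genes were 4 higher and 7 lower of 16 (25.0% and 43.8%), and 3 and 10 with median-ratio scaling (18.8% and 62.5%). PTGS2, the inducible prostaglandin synthase, was at 34.9 to 57.9 RPKM (median 42.6) against 160.1, 121, 107, 106 and 90.6 RPKM (-1.36 ± 0.20, adjusted p = 7.1e-06), and AKR1B1, a prostaglandin F synthase, differed by -1.16 ± 0.14. STAR, which carries cholesterol into mitochondria, was higher (1.19 ± 0.09).

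Cell cycle genes were 39 higher and 2 lower of 47 as deposited (83.0% and 4.26%, against 60.0% and 5.97% of all genes), and 23 and 8 with median-ratio scaling (48.9% and 17.0%, against 30.0% and 25.0%). CDK4, a G1 kinase, was at 11.9 to 23.2 RPKM in whole embryos and 1.53 to 2.89 RPKM in TE, a 8.07-fold higher mean, and UBE2C, an enzyme of mitotic exit, at 38.0 to 100.5 RPKM and 9.09 to 12.0 RPKM (2.67 ± 0.19). The mitotic genes KIF20A (1.51 ± 0.11) and AURKB (1.63 ± 0.12) rose too. Of the lower ones 1 was lost without fresh TE 1 or without any of fresh whole embryos 1, 2, 3 and 6. In vitrified samples 11 of the 47 were higher in whole embryos and none lower, where 15.3% and 3.59% of all genes were. Replication-dependent histone genes and their processing factor LSM10 were 5 higher and none lower of 12 (1 lower without fresh whole embryo 6), which turned to 1 and 5 with median-ratio scaling.

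Stress lists moved with the scaling. Their counts stand against 60.0% higher and 5.97% lower of all genes as deposited, and 30.0% and 25.0% with median-ratio scaling. Heat shock and endoplasmic reticulum genes were 24 higher and none lower of 34 (1 lower without fresh TE 5 or fresh whole embryo 4) and turned to 8 and 14, with HSPB1 (3.17 ± 0.27) and HSPA5 (2.35 ± 0.24) higher under both. Apoptosis genes were 14 higher and 1 lower of 23 and turned to 6 and 7, with FAS (0.35 ± 0.03), a death receptor, higher under both. Glycolysis and hypoxia genes were 13 higher and 4 lower of 32 and turned to 9 and 15. Among these GAPDH was at 109.8 to 316 RPKM and 16.9 to 34.0 RPKM (3.07 ± 0.23), PKM rose by 2.03 ± 0.14, and NDRG1, induced by low oxygen, was at 0.0646 to 0.237 RPKM (median 0.107) in whole embryos against 1.07, 0.987, 0.807, 0.993 and 0.854 RPKM in TE (-0.79 ± 0.04). Oxidative stress genes were 24 higher and 1 lower of 31 (none lower without fresh TE 4), and 15 and 6 with median-ratio scaling, so most calls were higher under both. The glutathione transferase GSTP1 (3.58 ± 0.24) and the peroxiredoxin PRDX2 (2.61 ± 0.23) were among the higher. Chromatin genes were 23 higher and none lower of 32, and 10 and 7 with median-ratio scaling, with HDAC2 (0.51 ± 0.05) and DNMT1 (0.45 ± 0.06) higher under both.

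**Figure D5:**
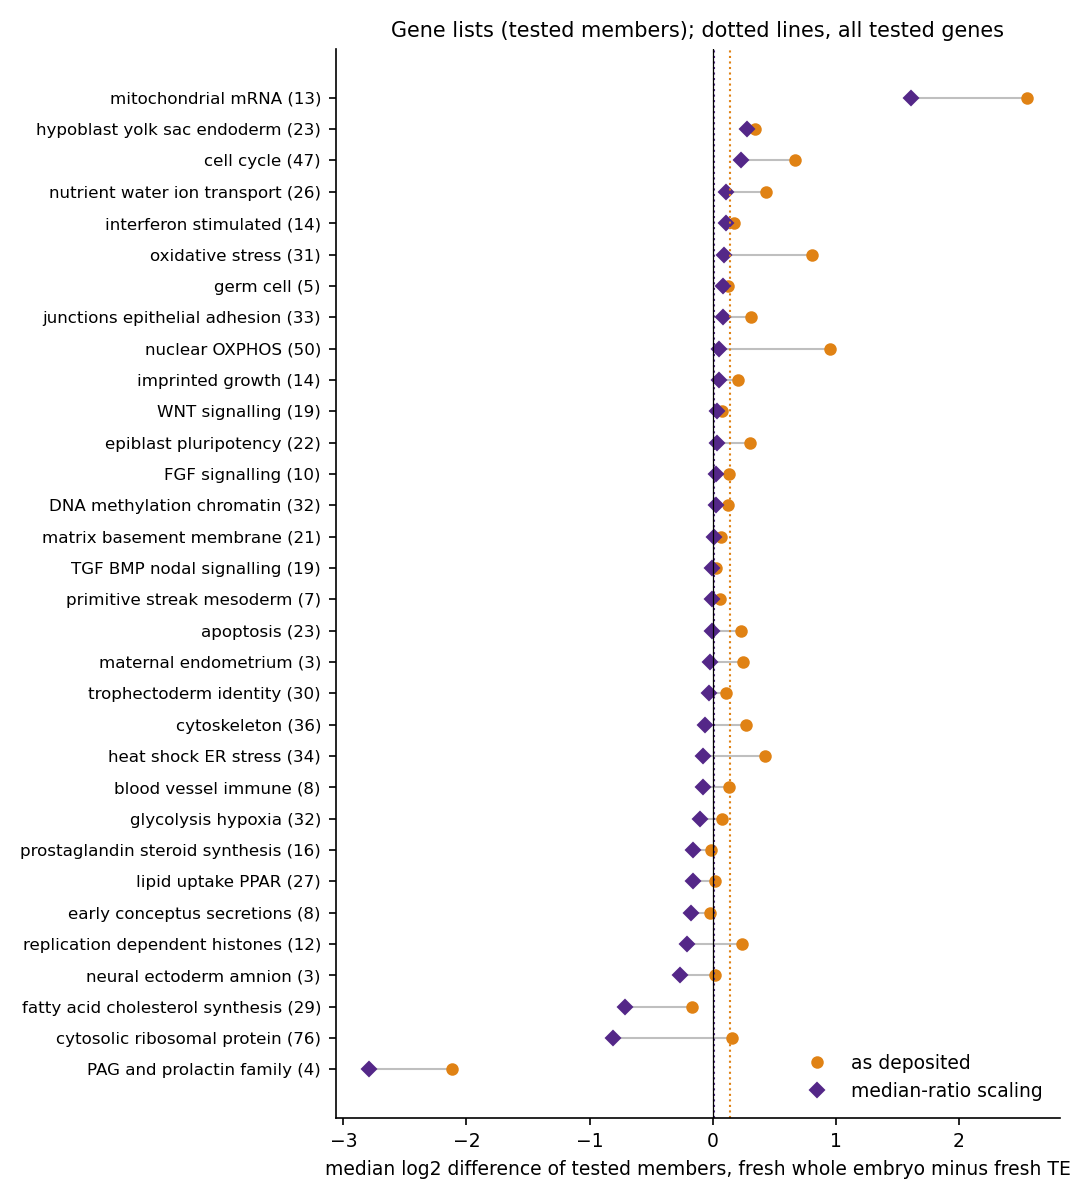
Median log2 difference, fresh whole embryo minus fresh TE, of the tested members of each gene list (number in brackets) as deposited (circles) and with median-ratio scaling (diamonds), with the median of all tested genes as dotted lines. Mitochondrial messengers are the highest under both (2.55 and 1.61) and the PAG and prolactin family the lowest (-2.12 and -2.80), while ribosomal protein genes cross 0 (0.16 and -0.81).

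Lists of epithelial structure and transport lay on both sides of the 60.0% of all genes called higher as deposited. Junction genes were 24 higher (72.7%) and 3 lower of 33 (1 lower without fresh whole embryo 6), and 13 and 9 with median-ratio scaling, with the desmosome genes JUP (1.18 ± 0.11) and DSG2 (0.76 ± 0.08) higher under both. Transport genes were 19 higher (73.1%) and 1 lower of 26, and 14 and 3. The water channel AQP3 was at 1.74 to 4.86 RPKM (median 3.68) against 0.217, 0, 0, 0.138 and 0.0501 RPKM (adjusted p = 3.8e-08), without overlap, and the amino acid carrier SLC38A2 rose by 2.29 ± 0.13. Cytoskeleton genes were 20 higher (55.6%) and 3 lower of 36 (1 lower without fresh TE 1) and turned to 9 and 14. TMSB10, which binds actin monomers, was at 4487 to 6412 RPKM (median 5539.9) against 10832, 10918, 14857, 15095 and 14922 RPKM (-1.26 ± 0.12), while PFN1, another binder of actin monomers, was higher (3.44 ± 0.30). Matrix genes were 11 higher (52.4%) and none lower of 21, and 4 and 3, with SPARC (1.28 ± 0.18), PLAU and fibronectin (FN1, 1.31 ± 0.18) among the higher, the last not with quantile normalization (adjusted p = 0.081).

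Counts of the lists below stand against 60.0% higher and 5.97% lower of all genes as deposited, and 30.0% and 25.0% with median-ratio scaling. Low genes in them can differ widely by ratio though little on the log2 scale. WLS of the WNT list, at 0.281 to 0.492 RPKM against 0.0155 to 0.0430 RPKM, had a 11.2-fold higher mean (0.38 ± 0.04). FGFR4 of the FGF list was at 0.0612 to 0.295 RPKM in whole embryos and 0 in all TE samples (0.20 ± 0.06). FGF genes were 4 higher and 1 lower of 10 (none lower without fresh TE 1, 2 or 5 or fresh whole embryo 1, 3, 5 or 6), and 3 and 1 with median-ratio scaling. SPRY2, a feedback inhibitor of FGF signalling, rose by 1.58 ± 0.16, from 0.145 to 0.684 RPKM to 2.03 to 4.46 RPKM, whereas DUSP6, which shuts off ERK, rose by 0.81 ± 0.19 as deposited and stood at -0.02 ± 0.19 with median-ratio scaling. WNT genes were 10 higher and 2 lower of 19, and 5 and 2. TMEM88, an inhibitor of the pathway, was at 13.9 to 101 RPKM (median 66.6) against 1.49, 2.72, 2.86, 1.69 and 1.83 RPKM (4.06 ± 0.40), and the receptor FZD10 was lower (-1.11 ± 0.23). TGF and BMP genes were 9 higher and 1 lower of 19 (2 lower without fresh whole embryo 4) and turned to 2 and 4. ID3, a target of BMP signals, rose by 2.44 ± 0.48, the transducer SMAD1 fell (-0.23 ± 0.04) and the common partner SMAD4 rose by 0.22 ± 0.04 as deposited and stood at -0.01 ± 0.04 with median-ratio scaling. Imprinted genes were 7 higher and 1 lower of 14, and 5 and 4, with PHLDA2, another brake on placental growth, higher (1.84 ± 0.29) and CDKN1C lower.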

How the data were processed

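RNA sequencing had been done on 6 fresh whole embryos, 5 fresh TE samples, 2 vitrified whole embryos and 7 vitrified TE samples. FastQC, STAR 2.5.3a, Partek and the UMD3.1 assembly appear in the submitters' processing notes. How reads were counted, whether by strand, and why these genes are listed was not given in the sources used here. For each gene and sample the authors deposited 1 value with no unit named, which was taken as RPKM, made by dividing reads by the genomic span and the library's reads and adding 0.01: after subtracting 0.01, 94.8 to 95.9% of values under 1000 reads came out within 0.1 read of a whole number in the fresh libraries. Recovered reads ran from 6.01 to 14.53 M (2.03 to 8.73 M in listed genes), and deeper whole embryo libraries give low genes a smaller counting error. No sample column was left unmapped.

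Genes with at least 10 reads in at least 2 libraries were fitted with limma 3.58.1 (statmod 1.5.0, R 4.3.3) on log2(RPKM + 1), 1 mean per group, a trend and robust empirical Bayes, and Benjamini-Hochberg adjustment with a threshold of 0.05. Library measures were tested by exact permutation (Python 3.11.15, numpy 2.4.6, scipy 1.17.1, pandas 2.3.3, matplotlib 3.10.9). The fit was tested on simulated data. Same-numbered fresh samples did not deviate together (correlations of deviations from -0.175 to 0.160), so the numbers were not used as pairs.

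Named genes were the 8 highest and 8 lowest fold changes under median-ratio scaling among genes past the threshold in 3 scalings, with at least 5 RPKM in the higher group and no overlap of the fresh groups; up to 4 members of each of 33 lists with the smallest adjusted p; and 13 markers, of which HNF4A and T were not analysed here. Further genes were named after their values were seen, among them SOX15, ELF3, DLX5, KRT18, ISG15, CER1 and the sterol genes. Some of the genes that the rule takes are not reported here. Of 1035 listed symbols 866 were found. Members, lists and rules were chosen with earlier results of these data known. Alternatives were the 3 other scalings, pseudocounts of 0.1 and 5, other filters, only the fresh groups, a replicate block, sample weights, averaging of near-identical TE libraries and leaving out each fresh sample.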

Additional observations from a re-analysis of the deposited data

Results flagged for a closer look

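In 6 of the 60 groups of samples examined for the genes named by size or as markers, the highest sample stood far from the others, where chance gives about 1 in 20. Among fresh whole embryos these were GATA3 at 1.02 RPKM, POU5F1 at 6.01 RPKM and NANOG at 2.53 RPKM, the last 2 in whole embryo 3. Among fresh TE samples they were PINLYP at 795 RPKM, and DDX3Y at 0.0154 RPKM and SOX2 at 0.114 RPKM in fresh TE 2, each with the other 4 samples at 0. For list genes the same was seen in 15 of 222 groups.

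The whole embryo minus TE difference was not the same in fresh and vitrified samples, by the test of that difference, for 3427 genes and for 18 of the 25 genes named by size or as markers. It was larger in fresh samples, on the log2 scale, by 5.92 for CCL27, 5.75 for APOA2, 5.71 for MIF, 4.48 for GUCA2A, 4.39 for IFITM3, 4.16 for PDPN, 2.98 for CLDN6, 2.38 for ZFP42, 1.21 for KRT8 and 0.68 for PDGFRA. Among genes in excess in fresh TE it differed by -5.91 for PAG2, -4.29 for PRXL2A, -3.93 for PAG11, -3.39 for CDKN1C, -3.38 for PINLYP, -3.04 for IFNT, -2.70 for DEFB and -2.68 for ANKRD1. Of 111 named list genes 93 passed the same test, as did 32.3% of all genes. Genes named by size or by the p of the fresh difference were chosen on values this test uses, which raises these counts. The groups differ in storage and, as given above, in library makeup, and the parts of these were not tested.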

How the results depend on the processing

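Scaling moved the counts of higher and lower genes most. Genes higher in whole embryos numbered 6364 as deposited, 4204 with listed-gene scaling, 3182 with median-ratio scaling, 3267 with quantile normalization and 2573 with median-ratio scaling and averaged TE pairs, the last an alternative chosen after seeing the data, as was thinning. Lower genes numbered 633, 1696, 2653, 2684 and 2371 in that order, and 1361 with no filter on low values, where more genes were tested. Leaving out each fresh sample in turn gave 5977 to 6317 higher genes, 564 to 701 lower and 3114 to 3686 that differed between fresh and vitrified samples, a count that ranged over 2444 to 4418 in the other alternatives. The difference in library measures then ranged over 20.4 to 22.1 percentage points for the share of reads in listed genes, 2.82 to 3.19 for mitochondrial messenger RNA, -2.73 to -2.33 for mitochondrial ribosomal RNA, -663 to -532 small RNA reads per M and 1973 to 2324 detected genes.

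With the replicate number as a block, and only the fresh groups in the fit, 6487 genes were higher and 525 lower. The labels state no pairing, and blocked library measures, the mean of 5 same-numbered differences, were 21.3 and 3.06 points, -2.33 points, -575 reads per M and 2129.6 genes, each with an exact sign-flip p of 0.0625, the smallest that 5 pairs allow.

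Over 180 genes and 25 alternatives, 4353 values kept their direction and side of the threshold, 117 lost the call, 13 gained it and 10 changed sign, all 10 under a rescaling. In the order median-ratio, quantile and median-ratio with averaged pairs, MUC1 came to -0.020, -0.026 and -0.15, DUSP6 to -0.019, -0.071 and -0.048, and SMAD4 to -0.0075, -0.0053 and -0.0075, while LAMB1 came to -0.0015 with quantile normalization. The cause was not tested. Counts of list members stayed within 1.5 times in 1429 cases and moved in 221. Where a list had no member lower or none higher by limma, the same held at an unadjusted p under 0.05, except that 1 heat shock gene was lower as deposited, 1 endometrium gene higher with median-ratio scaling, and the following in vitrified samples. Lower there were 12 ribosomal protein, 3 glycolysis and 2 lipid uptake genes, and 1 gene each of the epiblast, neural, FGF, TGF-beta, oxidative phosphorylation and apoptosis lists. Higher there were 3 prostaglandin and steroid synthesis and 2 transport genes, and 1 gene each of the PAG, ribosomal protein and histone lists. At these depths 10 reads correspond to low RPKM in long genes only, so short genes such as MT1A rest on few reads.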

Other observations

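Few genes separated fresh whole embryos from all 12 TE libraries, fresh and vitrified. Of the 454 genes in which every fresh whole embryo was above every TE library, 245 were also higher under 3 scalings, and of the 36 in which every one was below, 34 were also lower under 3 scalings. Genes in the following sentences were picked from these after their values were seen. Metallothioneins, small proteins that bind zinc and copper, stood out. MT2A was at 6.46 to 23.6 RPKM (median 11.8) in fresh whole embryos, 0.167, 0.516, 1.45, 1.42 and 0.154 RPKM in fresh TE and 0.108 to 2.55 RPKM in vitrified TE. MT1E was at 0.747 to 2.63 RPKM (median 2.04), 0.0232 to 0.406 RPKM and 0.0195 to 0.394 RPKM, and MT1A at 0.599 to 1.72 RPKM, 0 to 0.142 RPKM and 0 to 0.131 RPKM. The vitrified whole embryos were far apart, at 0 and 40.6 RPKM of MT2A and 0 and 5.58 of MT1A. The second of them also had the higher POU5F1. Near-identical copies make the split between these 3 genes uncertain.

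S100A4, a calcium-binding protein of motile cells, was at 1.05 to 6.51 RPKM in fresh whole embryos against 0 to 0.220 RPKM in fresh and 0.0795 to 0.855 RPKM in vitrified TE. HMOX1, which breaks down heme, was at 3.01 to 9.58 RPKM against 0.571 to 1.94 RPKM and 1.11 to 2.68 RPKM. PLAU, a secreted protease, and CCL27 had the same order.

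Of genes below all TE libraries, several belong to sterol and fatty acid synthesis. INSIG1 was at 0.311 to 0.604 RPKM in fresh whole embryos, 0.799 to 2.11 RPKM in fresh TE and 0.625 to 1.54 RPKM in vitrified TE, and FDFT1 at 0.612 to 1.12 RPKM, 1.21 to 1.61 RPKM and 1.51 to 1.80 RPKM. In vitrified whole embryos FDFT1 was not low, at 2.32 and 2.57 RPKM. FADS2, MVD and TFAP2A were among the 8 genes in which the vitrified whole embryos, too, were below all 12 TE libraries. FADS2 stood at 0.167 and 0.280 RPKM in vitrified whole embryos and 0.405 to 1.18 RPKM in vitrified TE.

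Short genes differed more than long ones. The median ratio of whole embryo to TE means was 2.83 for genes spanning under 2 kb and 2.05 to 2.23 in longer classes.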
